A study of Mus musculus with 2 samples.

Results

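Purinergic receptors are the membrane proteins that sense extracellular nucleotides and adenosine, and Gpr17 is a G protein-coupled receptor related in sequence to the P2Y branch of them. The genes described here were chosen by name: 6 P2Y receptors (P2ry1, P2ry2, P2ry6, P2ry12, P2ry13 and P2ry14), 2 P2X channels (P2rx4 and P2rx7) and 2 adenosine receptors (Adora1 and Adora2a). A probe set, the group of array probes that reads about 1 exon, counted for a gene only where the platform annotation gave it that gene's symbol and no other. Of the 10 genes, 8 had such probe sets, 86 in all, out of 22296 symbols with 318760 probe sets. Adora1 and Adora2a had none, so their signals were not analysed here.

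Receptors of the P2Y family are G protein-coupled. The products of P2ry1, P2ry2 and P2ry6 act mainly through Gq and calcium release, whereas those of P2ry12, P2ry13 and P2ry14 act through Gi and lower cyclic AMP. P2X receptors are cation channels opened by ATP. In brain P2ry12, P2ry13 and P2ry6 are best known from microglia, where P2ry12 steers processes towards released ATP and ADP and P2ry6 takes part in phagocytosis.

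The study measured AgRP neurons, hypothalamic cells named for their agouti-related peptide that promote feeding, after their collection by FACS. It used 1 array of FoxO1 KO cells and 1 array of FoxO1 heterozygous KO cells, the latter called het below, so both arrays carry a FoxO1 deletion, on 1 or on both alleles. Mice were littermates of mixed background, matched for age and sex; no source used here gives their ages, the driver of the deletion, the number of mice or any pooling. The title of the series names Gpr17 as a target of the transcription factor FoxO1 in these cells, and the comparison of its receptor relatives asks which of them differ between the same 2 samples.

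Values are RMA signals on the log2 scale, and every difference is KO minus het. A probe set was usable where the average of its 2 signals reached a floor of 5.86, the median of such averages, and dim otherwise. A gene's difference is the median over its usable probe sets, its level on an array is the median of those probe sets there, and the SD is over probe sets. The 2-fold rule called a gene higher or lower if that difference reached a size of 1 and no fewer than 75% of its usable probe sets, with a minimum of 3, shared the direction. The design of 1 array per genotype allows no test, and probe sets of a gene share the same 2 RNA samples, so the SD does not measure the spread between mice. In such samples fewer cells of a type and less RNA per cell cannot be told apart.

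Over all probe sets, which are not independent replicates, the 2 arrays had a correlation of r = 0.920. Foxo1, the targeted gene, had a difference of -0.48 (SD 0.53) and was lower in 8 of 8 usable probe sets, without passing the 2-fold rule; the exons they read, deleted or not, are unknown here. Agrp, which defines the sorted cells, had levels of 12.4 on KO and 12.0 on het. Over 16639 evaluated genes the median difference was -0.11, and 65.2% of the genes were below 0.

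Of the 8 measured receptors, P2ry13 and P2ry14 were higher on the KO array and no receptor was lower under the 2-fold rule. P2ry13 was higher by 3.33-fold and P2ry14 by 2.21-fold, opposite in direction to Gpr17, whose difference was -2.10 (SD 1.48 over 5 probe sets). The rule called 1.13% of all evaluated genes higher and 1.12% lower. Among genes with 3 to 8 usable probe sets, the range in which both of these receptors fall, it called 1.97% higher and 1.53% lower. The 8 receptors divided evenly, 4 above 0 and 4 below, with a median of -0.06, close to that of all genes. Over their 55 usable probe sets the median difference was -0.12, against -0.11 over all usable ones. Over all 86 of their probe sets, 31 dim ones included, it was 0.01, against -0.09 over every probe set with 1 symbol.

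P2ry12, P2ry13 and P2ry14 lie side by side on chromosome 3, within the span of the larger gene Med12l and on the opposite strand to it, per the RefSeq tables of assembly GRCm38.p6. The stretches upstream of their transcription starts are shown because 2 of these 3 neighbours carried the differences and the third did not. Each run is the 250 bases before a start, on the minus strand and written 5′ to 3′, from RefSeq promoters of GRCm38.p6. The run of P2ry13 is chr3:59210883-59211132, that of P2ry12 chr3:59262986-59263235, and that of the outermost of 4 listed P2ry14 starts chr3:59153493-59153742. Capitals mark matches to the FoxO site GTAAACA or to CAAAACA, the core of an insulin response element, on either strand; the motifs did not overlap in these runs. No source used here gives the array's own genome build, so probe sets could not be placed on these coordinates.
P2ry13 upstream: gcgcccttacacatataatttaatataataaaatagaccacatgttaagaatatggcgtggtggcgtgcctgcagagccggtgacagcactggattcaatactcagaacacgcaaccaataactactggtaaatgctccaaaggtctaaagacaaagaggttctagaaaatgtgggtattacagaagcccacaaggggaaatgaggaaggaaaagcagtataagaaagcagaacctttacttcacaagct
P2ry14 upstream, outermost start: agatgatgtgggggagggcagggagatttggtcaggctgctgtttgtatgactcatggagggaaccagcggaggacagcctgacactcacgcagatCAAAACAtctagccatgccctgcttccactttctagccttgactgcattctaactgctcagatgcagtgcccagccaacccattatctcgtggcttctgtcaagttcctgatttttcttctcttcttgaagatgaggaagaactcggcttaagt
P2ry12 upstream: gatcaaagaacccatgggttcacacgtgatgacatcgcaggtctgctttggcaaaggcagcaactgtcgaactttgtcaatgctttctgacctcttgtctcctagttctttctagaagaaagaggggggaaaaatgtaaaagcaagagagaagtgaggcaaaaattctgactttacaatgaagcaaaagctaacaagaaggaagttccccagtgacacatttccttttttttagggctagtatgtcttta

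An inner P2ry14 start held both motifs, and 30 bases around each are shown because this was the only FoxO match among the receptors. The first stretch is chr3:59131308-59131337 and the second chr3:59131140-59131169, both on the minus strand, with the first base of the motif 208 and 40 bases before that start.
P2ry14 inner start, FoxO site: ccccttcatgcTGTTTACccttgatcaggc
P2ry14 inner start, insulin response element: ggtactttaaaTGTTTTGgtttgagcccta

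Promoter runs were listed for 8 of the 10 receptor genes (all but P2ry6 and Adora2a, so Adora1 is included), 14 runs in all, several of them overlapping starts of 1 gene. A FoxO match was found in runs of 1 gene, P2ry14, and CAAAACA matches in runs of the same gene only, including the outermost run printed above, 154 bases before the start. P2ry13 and P2ry12 had neither motif in these 250 bases. Over all 32851 promoter runs of that length, 3.17% held GTAAACA or its reverse complement and 5.56% held CAAAACA or its reverse complement. Counted by gene, 3.54% and 6.38% of 27025 genes held them in at least 1 run. P2ry14 had more runs than any other of the receptors, and so more chances of a match. Such matches are letters in a window and were not measured as binding sites here.

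Among receptors that couple to Gi, P2ry13, which responds to ADP, had the largest difference, 1.73 (SD 1.57 over 5 probe sets). Of evaluated genes 0.252% were as high. This rank gives no support for a difference, because 2 of the 5 P2ry13 probe sets were usable only through their KO signal. In order of their het signal its 5 probe sets read 8.37 on KO against 9.70 on het, 9.20 against 7.16, 7.28 against 5.93, 7.48 against 5.74 and 7.96 against 5.20. Thus 4 were higher by 1.36 to 2.77, while the brightest on the het array was lower, at -1.33. Of the 4 that were higher, 2 were under the floor of 5.86 on het and above it on KO. When both arrays had to reach the floor, 3 probe sets remained with a median of 1.36, and P2ry13 lost its call because 1 of the 3 was lower.

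P2ry14 encodes the receptor for UDP-glucose and related UDP-sugars. Its difference was 1.15 (SD 1.20 over 8 probe sets, 6 higher), a value reached by 0.986% of evaluated genes. That rank gives no support for a difference, because 3 of the 8 were usable only through their KO signal. The 4 probe sets brightest on het read 10.4 on KO against 10.6, 8.78 against 8.70, 8.87 against 7.52 and 6.93 against 7.35. The other 4 usable ones read 7.31 on KO against 6.34, 6.98 against 5.65, 7.09 against 5.15 and 7.60 against 4.42, and all were higher by 0.96 to 3.18. Both dim probe sets were higher too, at 6.23 against 3.82 and 5.25 against 3.54, so 8 of 10 were higher with no floor and the median there was 1.34. With no floor 0.763% of 20188 genes were called higher, P2ry13 and P2ry14 among them.

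The P2ry14 difference therefore lay mostly in probe sets of low het signal. It was 0.08 over the 3 probe sets above the 75th percentile of signal, and 0.08 over the 5 that reached the floor on both arrays, and the gene was not called in either setting. Without its most extreme probe set it stood at 0.96, just under 2-fold. A probe set can pass the floor through the KO array alone, as 3 of the 8 did.

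P2ry12, the ADP receptor that marks resting microglia, was level between the arrays at 0.05 (SD 0.09 over 3 probe sets). Its usable probe sets read 8.26 on KO against 8.06 on het, 7.43 against 7.38 and 6.93 against 6.90. Its 4 dim probe sets ran from -0.40 to 0.53, and over all 7 the median was 0.03. The 3 Gi-coupled neighbours thus gave 1.73, 1.15 and 0.05, and whether P2ry12 differs from the other 2 beyond the spread between mice could not be tested.

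**Figure D1:**
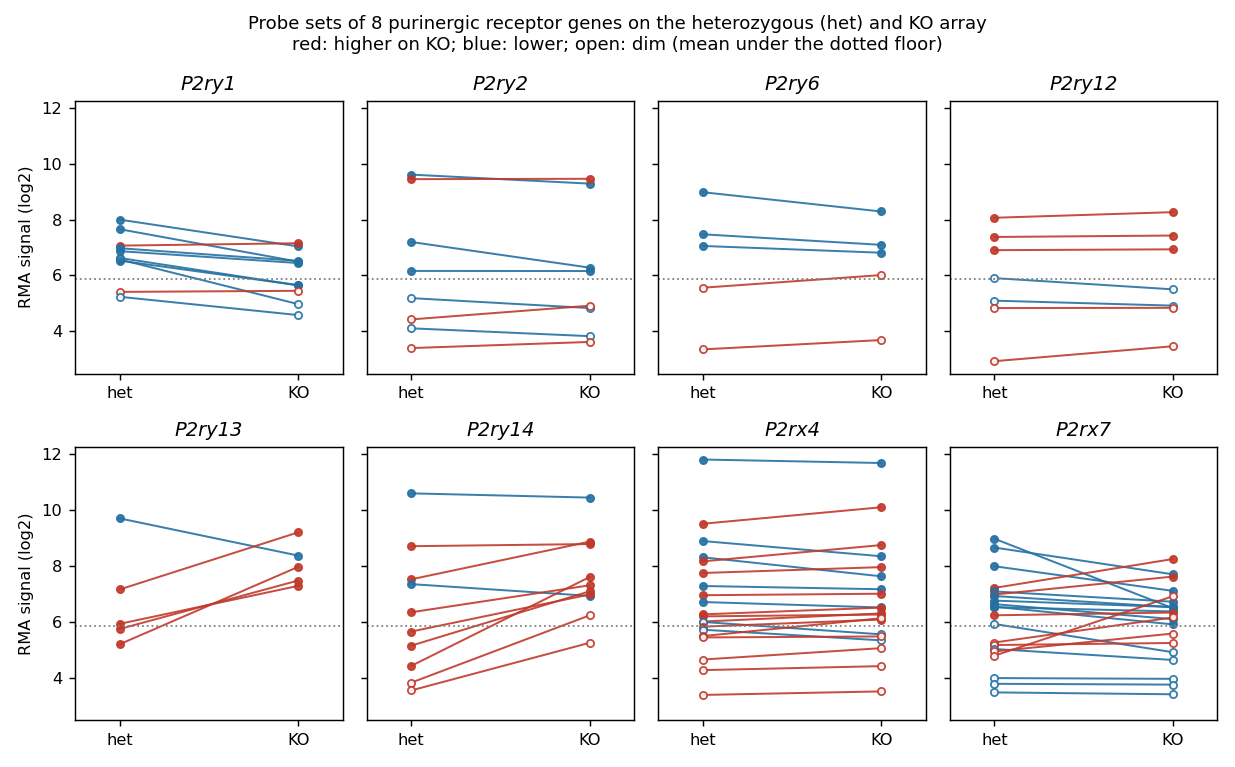
RMA signal on the log2 scale of every probe set of the 8 measured receptors, on the het array (left in each panel) and the KO array (right); lines join the 2 values of a probe set, red where KO was higher, blue where it was lower, with open points for dim probe sets and a dotted line at the floor of 5.86. P2ry13 has 4 lines that slope up and 1 that slopes down, the lowest P2ry14 lines slope up while its 2 brightest are level, and the 3 bright P2ry12 lines are level.

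Receptors that couple to Gq lay below 0, none past the 2-fold rule. P2ry1, an ADP receptor of neurons, astrocytes and vessels, was the lowest of all members at -0.88 (SD 0.44 over 7 probe sets), or 1.84-fold lower, and 1.83% of evaluated genes were as low. Its usable probe sets read 7.04 on KO against 8.0 on het, 6.49 against 7.65, 7.15 against 7.07, 6.52 against 6.97, 6.44 against 6.87, 5.65 against 6.63 and 5.65 against 6.53. So 6 of 7 were lower, by amounts from 0.43 to 1.16, and 1 was level at 0.09. Of its 3 dim probe sets 1 was lower by more, at 4.97 against 6.57. The P2ry1 difference was -0.77 with no floor and -0.45 where both arrays had to reach the floor.

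P2ry6, the UDP receptor, stood at -0.38 (SD 0.23 over 3 probe sets). The 3 usable probe sets read 8.29 on KO against 8.98 on het, 7.09 against 7.47 and 6.81 against 7.06. All 3 were lower, while its 2 dim probe sets were higher at 0.45 and 0.33, and 16.4% of evaluated genes were as low as P2ry6. P2ry2, which responds to ATP and UTP, stood at -0.16 (SD 0.44 over 4 probe sets). Its 2 brightest probe sets were at 9.28 on KO against 9.61 on het and 9.46 against 9.45, and the other usable ones at 6.28 against 7.20 and 6.16 against 6.16. The P2ry2 probe sets thus differed by -0.92, by -0.32 and, in 2 cases, by about 0, and its dim probe sets ran from -0.36 to 0.49.

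The ATP-gated channels were measured by the largest numbers of probe sets and did not pass the rule. P2rx4, found on neurons, microglia and endothelium, stood at 0.07 (SD 0.38 over 13 probe sets, 8 higher and 5 lower). Its brightest probe set read 11.7 on KO against 11.8 on het, and its usable differences ran from -0.68 to 0.59. P2rx7, the channel that opens at high ATP and triggers inflammasome signalling in microglia, stood at -0.38 (SD 0.88 over 12 probe sets, 9 lower). Its probe sets disagreed more, from -2.48 (6.49 against 8.97) to 1.03 (8.24 against 7.21). A dim P2rx7 probe set stood at 4.79 on het and 6.91 on KO. Over all 21 P2rx7 probe sets the difference was -0.15 with 14 lower, and over the 4 above the 75th percentile of signal it was -0.92, so its size depends on the floor.

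**Figure D2:**
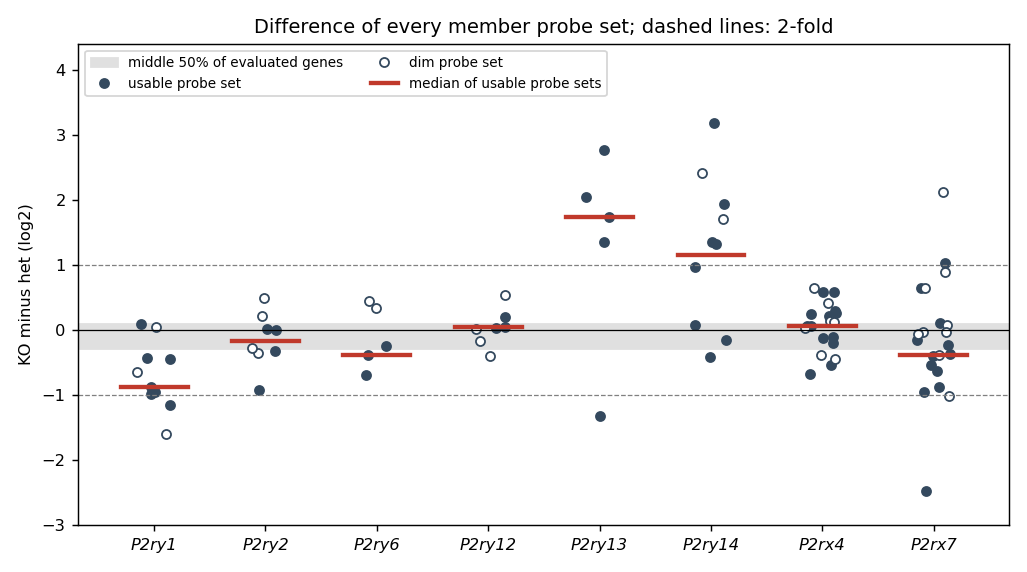
KO minus het difference on the log2 scale of each probe set (filled, usable; open, dim) and the median of the usable ones (red bar) for the 8 measured receptors; the grey band is the middle 50% of differences over evaluated genes and dashed lines mark 2-fold. P2ry13 at 1.73 and P2ry14 at 1.15 stand above the upper dashed line, P2ry1 at -0.88 lies nearest the lower one, and P2ry12 and P2rx4 lie inside the band.

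Of the 55 usable probe sets of the receptors, 26 were above 0 and 29 below. At the extremes, 9 were at least 1 higher and 3 at least 1 lower, where 9.24% of all usable probe sets were at least 1 higher and 11.0% at least 1 lower. P2ry13 and P2ry14 held 8 of those 9, and P2rx7 the other. Of these 8, 5 were under the floor on het (2 of P2ry13 and 3 of P2ry14) and were usable only through their KO signal, so the count of 9 gives no support for a difference. Probe sets of 1 gene read 1 transcript pool and are not independent, so these counts describe 2 genes.

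Genes next to P2ry13 and P2ry14 were compared because of their shared stretch of chromosome. Gpr171, a receptor of the neuropeptide BigLEN and the neighbour of P2ry14 on its other side, was also past the rule, at 1.30 (SD 0.90 over 8 probe sets). All 8 usable Gpr171 probe sets were higher, from 0.10 to 2.91, and its level was 7.88 on KO against 6.77 on het. Those that read 7.02 on KO against 5.69 on het and 7.15 against 5.29 were under the floor on het. They were usable only through their KO signal, which fixed their direction. With no floor 10 of 10 Gpr171 probe sets were higher. So 3 genes that lie within the span of Med12l were at least 2-fold higher, while P2ry12, also within it, was not.

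Med12l, a Mediator complex subunit gene that spans the cluster, was level as a gene at -0.09 (SD 0.86 over 60 probe sets). Of its 60 probe sets 10, or 16.7%, were at least 1 higher, up to 3.29, and 3 were at least 1 lower. Among all usable probe sets these shares were 9.24% and 11.0%. The Med12l probe set at 3.29 read 8.49 on KO against 5.21 on het, so it was usable only through its KO signal. Igsf10, which follows P2ry12, stood at 0.34 (SD 1.15 over 15 probe sets), with 6 at least 1 higher and 2 at least 1 lower. Its probe sets at 7.12 on KO against 5.15 and 7.37 against 5.52 were likewise under the floor on het. Probe sets of 1 gene are not independent, so these counts give no support for a difference. Farther out, Siah2 at 0.04, Clrn1 at -0.17, Aadac at 0.00 and Mbnl1 at -0.10 were level, and P2ry1 is the next purinergic gene along the same chromosome. No source used here says whether labelling kept the strand, so signal from Med12l and from the receptor genes on the opposite strand cannot be told apart with certainty. Siah2, Clrn1, Aadac and Mbnl1 were chosen after values of the cluster had been seen.

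**Figure D3:**
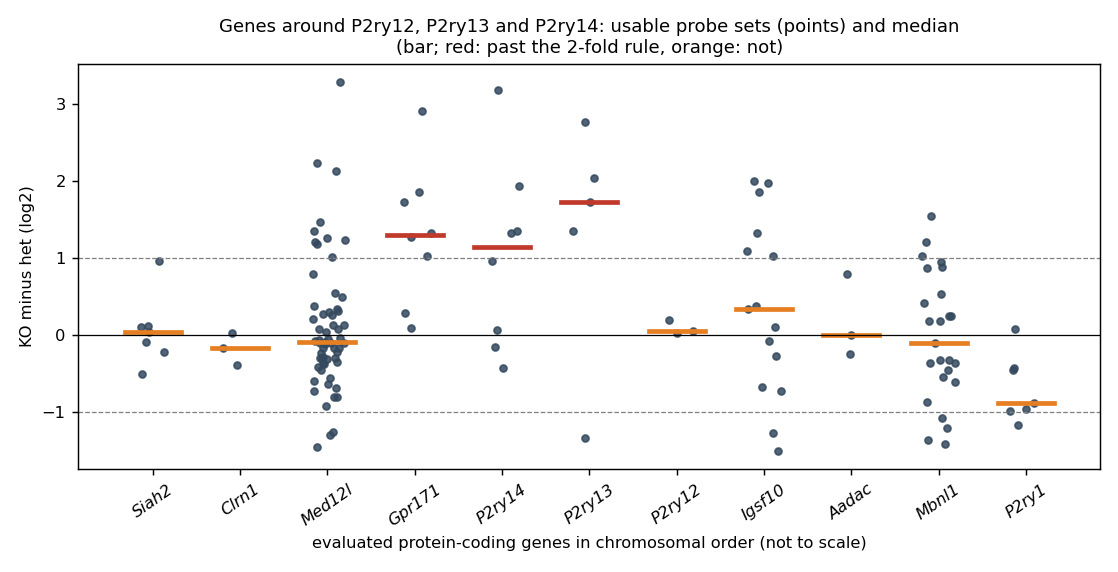
KO minus het difference on the log2 scale of usable probe sets (points) and gene medians (bars, red where past the 2-fold rule and orange where not) for evaluated protein-coding genes in chromosomal order, not to scale. The bars of Gpr171 at 1.30, P2ry14 at 1.15 and P2ry13 at 1.73 stand together above 1, between Med12l at -0.09 and P2ry12 at 0.05.

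The remaining purinergic receptors differed little. Of 9 others listed, 6 could be evaluated, all below 0 and none past the rule, with a median of -0.11 that equals that of all genes. The highest was the channel P2rx5 at -0.02 and the lowest P2rx6 at -0.27 (12 of 16 probe sets lower). The adenosine receptor Adora3 stood at -0.12 (SD 0.39 over 9 probe sets) and was the only adenosine receptor evaluated. P2ry4 and P2ry10 had too few usable probe sets, as did Cysltr1 and Cysltr2, the leukotriene receptors closest to Gpr17, and Gpr34. With no floor these 5 lay between -0.37 (P2ry4) and 0.24 (Cysltr2), none past the rule. Oxgr1, the oxoglutarate receptor, stood at 0.03 (SD 0.47 over 3 probe sets).

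Genes that supply or remove the ligands showed no change past the rule. The 15 genes of nucleotide release and breakdown had a median of -0.15, with 5 above 0, from the AMP-hydrolysing ectoenzyme Nt5e at 0.51 (4 of 6 probe sets higher) to Enpp2 at -0.71 (26 of 30 lower). With no floor Nt5e stood at -0.05, with 6 of 13 probe sets higher, and Enpp2 at -0.67. Enpp2 encodes autotaxin, which oligodendrocytes also make. Of 11 genes of adenosine uptake and metabolism 4 were above 0, with a median of -0.03, the purine nucleoside phosphorylase gene Pnp highest at 0.56 and the nucleoside carrier Slc28a2 lowest at -0.28. With no floor Pnp stood at 0.13 and Slc28a2 at -0.07. The 7 evaluated genes that make or carry UDP-sugars, the ligands of the P2ry14 product, had a median of 0.08 with 5 above 0. Ugp2, which makes UDP-glucose, was the highest of them at 0.49 (10 of 13 probe sets higher), and Uxs1 the lowest at -0.19.

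Among 18 genes of receptor coupling none passed the rule; 4 were above 0 and 14 below, and their median was -0.18. The regulator Rgs2, which limits Gq signalling, was highest at 0.60 and the calcium release channel Itpr2 lowest at -0.68. Shares below 0 are to be read against 65.2% for all evaluated genes.

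Markers of other cell types were set beside the receptors. Of 15 microglia and macrophage markers 12 were evaluated, 3 above 0 and 9 below, with a median of -0.10 and none past the rule. Their levels ran from 6.0 to 7.75 on KO and from 6.25 to 7.80 on het, with means of 7.15 and 7.19. Aif1 was highest at 0.50, with Ctss next at 0.40, and Trem2 was lowest at -0.30. Cx3cr1 and Csf1r, which define the cell type, stood at -0.12 and -0.29. Tmem119 and Fcer1g had under 3 usable probe sets. P2ry13 and P2ry14 lay above the range of that list, while P2ry12 and P2ry6 lay within its range or just under it. The part of microglia in the receptor differences was not tested.

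Oligodendrocyte lineage markers lay on the side of Gpr17, opposite to P2ry13 and P2ry14. All 11 evaluated were below 0, with a median of -1.02 and levels from 6.26 to 8.47 on KO and from 7.54 to 9.46 on het. The rule called 6 of them lower, against 1.12% of all evaluated genes, among them Pdgfra at -2.41, Mag at -2.12, Cnp at -2.10 and Enpp6 at -1.78. Mog at -0.75, Olig1 at -0.51, Cspg4 at -0.48 and Olig2 at -0.42 did not pass it. Sox10 was highest at -0.09, with 5 of 9 probe sets lower. The part of these cells in the Gpr17 or P2ry1 differences was not tested. Endothelial and pericyte markers, 8 evaluated, were all below 0 with a median of -0.30, from Pecam1 at -0.05 to Cdh5 at -0.77, none past the rule. Their mean level was 6.81 on KO and 7.42 on het. Astrocyte and tanycyte markers had a median of -0.16 with 4 of 10 above 0, from Gfap at 0.66 to Slc1a3 at -0.73, and AgRP neuron markers 0.10 with 6 of 10 above 0, from Mc3r at 0.52 to Ghsr at -0.60. With no floor Gfap stood at 0.10 and Slc1a3 at -0.38.

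**Figure D4:**
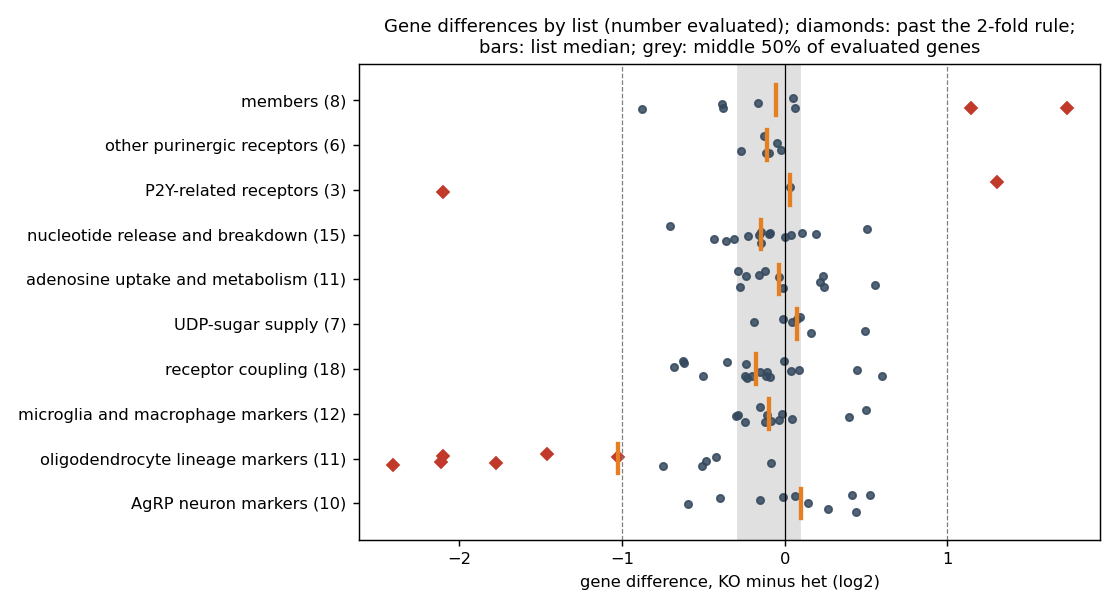
Gene differences, KO minus het on the log2 scale, for the receptors and for lists of related genes and markers, with the number evaluated in brackets; points are genes, red diamonds genes past the 2-fold rule, orange bars list medians, and the grey band the middle 50% of evaluated genes. The receptor list holds P2ry13 and P2ry14 as its 2 diamonds, and the oligodendrocyte list has 6 on the lower side and a median of -1.02.

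Directions of the 8 receptors did not depend on how the arrays were scaled. With differences centred on the median over genes, P2ry13 stood at 1.84, P2ry14 at 1.26 and P2ry1 at -0.77, and with quantile normalisation repeated on the probe sets with 1 symbol they stood at 1.80, 1.21 and -0.82. All 8 kept their sign under both. The choice of probe sets mattered more. Calls are counted here only over alternatives that could change a gene's difference. The 1.5-fold rule and the setting without a rule on agreement are therefore left out. Across those that evaluated it, P2ry13 ran from 1.31 to 1.84 and was called in 9 of 10. P2ry14 ran from 0.08 to 1.34 and was called in 8 of 11. P2ry1 ran from -0.92 to -0.45 and was called in 0 of 10, although the 1.5-fold rule called it lower. P2rx7 ran from -0.92 to -0.15 and was called in 0 of 11.

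**Figure D5:**
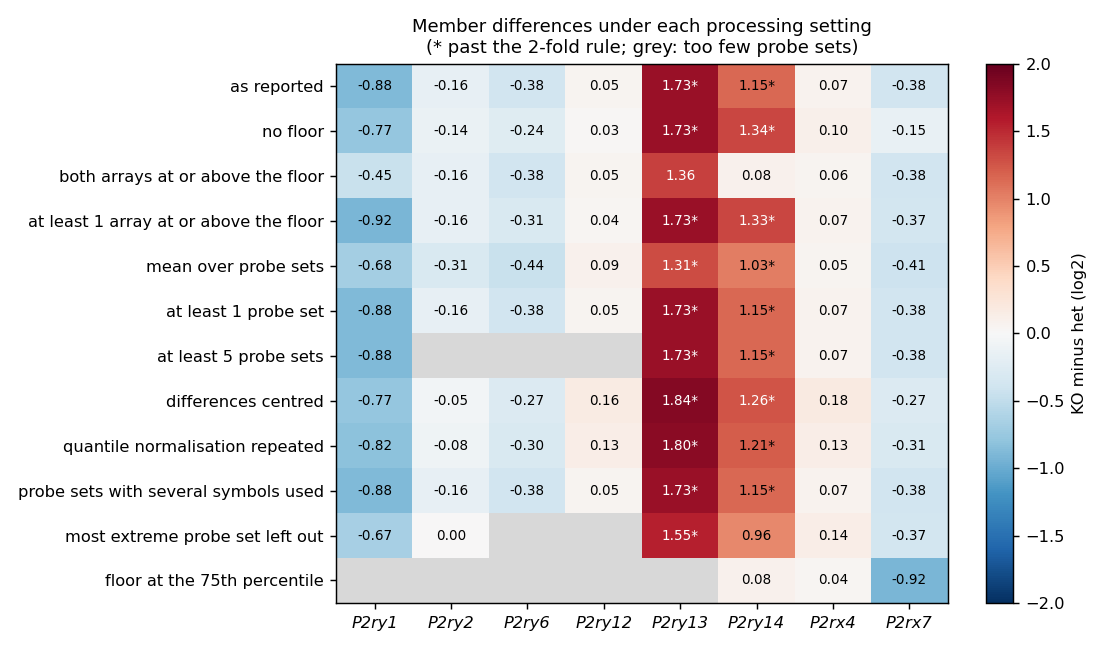
Difference of each measured receptor, KO minus het on the log2 scale, under the setting as reported (top row) and each alternative that could change it. An asterisk marks a gene past the 2-fold rule, red is higher on KO, blue lower, and grey cells had too few probe sets. P2ry13 and P2ry14 are red in every evaluated cell, but P2ry14 fades to 0.08 where probe sets that are dim on 1 array are left out.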

How the data were processed

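The deposited table gives 1 log2 value per probe set and array for 1235936 probe sets on 2 exon-level arrays. The authors made these values with RMA and Partek, per the submitters' processing notes, without versions; the log2 scale was read from the values, which ran from 2.53 to 14.1. RMA as usually run forces both arrays to nearly 1 distribution, which hides a change in total RNA. No source used here gives the genome build or annotation release. The number of arrays, 1 per genotype, limits the precision of every value.

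Arrays were assigned to genotypes from the labels. Of the probe sets, 318760 had 1 symbol, 6684 several and 910492 none. Of 137 symbols in all lists, 2 were matched through an older symbol and 7 had no probe set of their own. The members, the lists and the rules were chosen with earlier results of these data known. Named are the members, Gpr17, Foxo1, the neighbours of P2ry12 to P2ry14, and from each other list up to 4 genes past the 2-fold rule or else its highest and lowest; other genes are named as defining markers, close relatives or carriers of a role described. Alternatives changed the floor, the summary, the least number of probe sets (1 or 5), the centring, the normalisation, probe sets of several symbols, the most extreme probe set, the fold (1.5) and the rule on agreement. The summary per gene was first tested on simulated data. Python 3.11.15, numpy 2.4.6, pandas 2.3.3 and matplotlib 3.10.9 were used.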

Additional observations from a re-analysis of the deposited data

How the results depend on the processing

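The count of 2 receptors at least 2-fold higher became 0 with the floor at the 75th percentile, where 3 of the 8 receptors were evaluated, 0 where both arrays had to reach the floor, and 1 (P2ry13) without each gene's most extreme probe set. It was 2 under the other alternatives. The count of 0 lower became 1 (P2ry1) under a 1.5-fold rule, which called 4.90% of all genes lower. Of the receptors, 4 were above 0, and 2 with the floor at the 75th percentile. The median over receptors of -0.06 was 0.07 with at least 5 probe sets per gene and also without the most extreme probe set, 0.05 after centring and 0.15 as a mean over receptors; it moved by at most 0.1 elsewhere. After centring, which adds 0.11 to every gene, the median over all receptor probe sets was 0.12 in place of 0.01 and the microglial median 0.01 in place of -0.10. No paired analysis was possible because each genotype has 1 array, and for the same reason no array could be left out. Signal over background limits the low end: 31 of the 86 receptor probe sets were dim, and a difference between a dim and a bright value has an uncertain size.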

Other observations

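These genes were picked after their values were seen. Among the genes of receptor coupling, the 2 listed regulators of G protein signalling were higher on the KO array without passing the 2-fold rule, Rgs2 at 0.60 (8 of 8 probe sets higher) and Rgs4 at 0.44 (6 of 7). The 2 listed inositol trisphosphate receptor genes, calcium release channels that act downstream of Gq, were lower without passing it, Itpr1 at -0.63 (55 of 68 probe sets lower) and Itpr2 at -0.68 (44 of 51). The Gq subunit gene Gna11 stood at -0.62 (6 of 9 lower) and its paralog Gnaq at -0.23 (9 of 16). The listed Plcb genes went both ways, with Plcb1 at -0.36, Plcb3 at 0.08 and Plcb4 at -0.50. These counts are to be read against all usable probe sets, of which 123990 of 215976 were below 0.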
